A study of Mus musculus with 4 samples.

Results

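The eye field homeobox factors examined here are 7 transcription factor genes, Rax, Six3, Six6, Pax6, Meis1, Meis2 and Vsx1, out of 20252 genes measured. They were taken by name from a list of eye-field regulators, and each was represented by the transcript cluster (the array's unit for the probes of a transcribed region) that the probe annotation assigns to that symbol alone. Of the 7 genes, 6 had 1 such cluster. Pax6 had 5, and the brightest of them, by the mean of its 4 signals, was used. Expression was measured on arrays of total RNA from neuroretina, the neural layer of the eye, dissected at embryonic day 13.5 from embryos of CD-1 mice. The 2 control arrays came from Lhx2 lox/lox embryos, which carry loxP-flanked alleles of the LIM-homeodomain gene Lhx2 and no Cre transgene. The 2 labelled knockout arrays came from embryos with the same Lhx2 lox/lox alleles and, in addition, a Cre recombinase transgene active in retinal progenitors. Both groups therefore carried the floxed alleles, and the transgene alone set them apart by label, so that an effect of the transgene and one of Lhx2 deletion cannot be told apart. The sources used here do not say whether an array held 1 embryo or a pool.

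The eye field is the patch of the anterior neural plate from which both eyes form, and it is marked by overlapping expression of homeobox genes that regulate one another. Rax is needed for optic vesicles to form, Pax6 is needed for eye development in many animals and keeps retinal progenitors multipotent, and Six3 and its close relative Six6 act largely as repressors that sustain forebrain and eye identity and progenitor growth. Rax, Six3 and Six6 also function in the hypothalamus or pituitary. Meis1 and Meis2 encode TALE homeodomain proteins that bind DNA together with Pbx partners and regulate Pax6 in the lens and retina. Vsx1 is a paired-like homeobox gene known chiefly from bipolar cells, which arise later than the stage sampled.

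The upstream sequences of Six6 and Six3 are shown because both belong to the same homeobox subfamily and had unequal differences between the genotypes. Each sequence is the 250 bases before the annotated start in RefSeq on GRCm38.p6, 5′ to 3′ on the gene's strand, with the Six6 window at chr12:72939632-72939881 and the Six3 window at chr17:85620584-85620833, both on the plus strand. Capitals mark TAAT or ATTA, the core that many homeodomain proteins bind, and the letters GATTGGCAG, which contain a CCAAT box read on the opposite strand.
Six6: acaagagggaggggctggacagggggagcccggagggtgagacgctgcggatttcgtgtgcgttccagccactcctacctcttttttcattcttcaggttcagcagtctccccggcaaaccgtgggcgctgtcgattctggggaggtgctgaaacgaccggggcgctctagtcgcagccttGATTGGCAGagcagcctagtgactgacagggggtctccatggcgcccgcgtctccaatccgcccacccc
Six3: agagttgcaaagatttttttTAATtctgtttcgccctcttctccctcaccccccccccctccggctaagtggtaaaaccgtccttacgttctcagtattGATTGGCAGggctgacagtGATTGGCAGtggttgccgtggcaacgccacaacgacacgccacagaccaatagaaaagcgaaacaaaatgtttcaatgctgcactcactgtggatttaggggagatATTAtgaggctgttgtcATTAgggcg
The Six3 window held 3 matches to TAAT on either strand and the Six6 window 0, beside a match in 54.9% of 32851 windows of the same length. GATTGGCAG, which was picked out by eye from these sequences, occurred 2 times in the Six3 window and 1 time in the Six6 window, and in 0.396% of all windows on either strand. The matches to the 2 motifs do not overlap one another. Windows of 6 of the 7 genes were searched (7 windows, since Pax6 has 2 annotated starts there), and GATTGGCAG was absent from the windows of Pax6, Meis1, Meis2 and Vsx1. No window of Rax was searched, so whether it holds these letters is not known here. These are descriptions of letters in the windows and do not show binding.

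The arrays did not share a common scale as deposited. For control replicates 1 and 2 the genes tested had a median log2 signal of 4.14 and 4.58, and for labelled knockout replicates 1 and 2 of 4.25 and 4.63. Every level given here is therefore a log2 signal minus the median of the genes tested on its own array, so that 0 is the middle gene of that array. Every difference is labelled knockout minus control on that scale. After centring, the median difference over all 20252 genes was -0.14, and differences of the 7 genes are to be read against that value. As a mark of dim signal, the 75th percentile of all 112205 transcript clusters lay between -0.27 and -0.06 on this scale in the 4 arrays, and each signal was set against its own array's value. Neuroretina markers lay above this mark in both groups for the 7 measured of 8 listed, with summed signals (log2 of the sum over the list on the linear scale) of 8.03 and 8.07 in control and 6.67 and 6.79 in labelled knockout arrays. Lhx2 had a difference of -0.06 (limma SE 0.23, adjusted p = 0.918). The sources used here do not say which exons its probes cover, so Lhx2 is no check of the genotype labels.

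The comparison of the genotypes asked which of the eye field factors differed in labelled Lhx2 knockout neuroretina. Six6 fell by 3.77 and Rax fell by 2.29 log2 units. Six3, Pax6, Meis1 and Vsx1 had lower means and Meis2 a higher mean in the labelled knockout arrays, and these 5 did not pass the test. The test was limma across all genes with an adjusted p of 0.05, which 2 of the 7 genes passed downward and 0 upward (4 of the 7 had an unadjusted p under 0.05, as did 11.4% of all genes). Over all genes it called 0.583%, of which 0.326% of all genes were lower and 0.257% higher. The median difference of the 7 genes was -0.83, beside -0.14 over all genes. Precision is limited by the number of arrays, 2 in each group, and p-values measure only how far these arrays vary, for technical reasons or others. In dissected tissue, fewer cells that express a gene and less RNA per cell cannot be told apart.

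**Figure D1:**
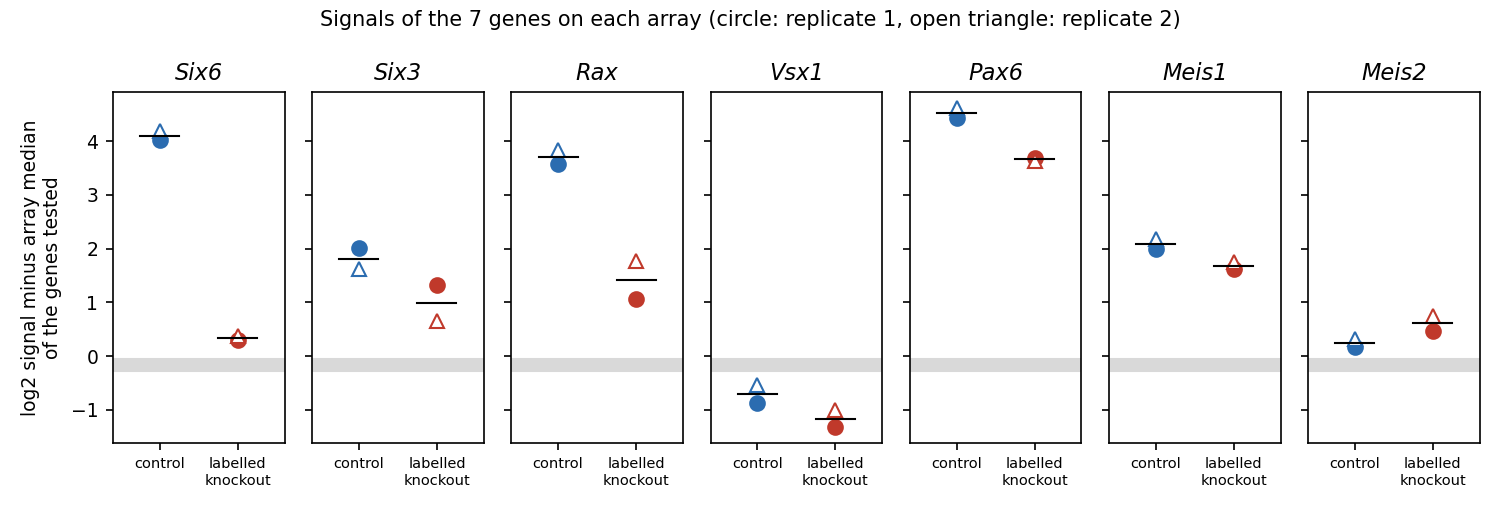
Log2 signal minus the array median of the genes tested, for each of the 7 genes on each of the 4 arrays. Blue marks control and red labelled knockout arrays, filled circles replicate 1 and open triangles replicate 2, black bars the group means, and the grey band the range over arrays of the 75th percentile of all transcript clusters. Six6 and Rax show the widest gaps between groups, and all 4 Vsx1 signals lie below the band.

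Six6, also called Optx2, is expressed in the developing retina and supports proliferation of its progenitors. Control replicates 1 and 2 had Six6 signals of 4.02 and 4.18, against 0.30 and 0.37 for replicates 1 and 2 of the labelled knockout. The groups were far apart, and the labelled knockout signals lay just above the mark of dim signal. The Six6 signal was 13.6-fold lower, a log2 difference of -3.77 (SE 0.21, 95% interval -4.26 to -3.27, limma adjusted p = 0.00922). By replicate number it was -3.72 among replicate 1 and -3.81 among replicate 2 arrays. Counted from the lowest difference, Six6 stood at rank 2 of 20252 genes. The limma call was lost after quantile normalization (adjusted p = 0.0911) and with arrays centred on the median of all transcript clusters (adjusted p = 0.0735). Both settings called 0 genes (0% of all genes), with 2263 and 1959 genes at an unadjusted p under 0.05.

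Six3 belongs to the same homeobox subfamily as Six6 and is needed for the rostral forebrain and the eye. Control signals were 2.01 and 1.62, and labelled knockout signals 1.32 and 0.65. Both labelled knockout signals were below both control signals, though replicate 1 of the labelled knockout lay only 0.30 below control replicate 2. The difference was -0.83 (SE 0.29, 95% interval -1.52 to -0.13, limma adjusted p = 0.338), with -0.69 and -0.96 for replicates 1 and 2. The intervals of Six6 and Six3 do not overlap, but the difference between the 2 genes was not tested. Leaving out 1 array in turn moved the Six3 difference between -1.16 (labelled knockout replicate 1 out) and -0.49 (labelled knockout replicate 2 out), and it did not pass in any of the 4 fits.

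The opposite-strand gene Six3os1, a long non-coding RNA that neighbours Six3 in the genome, was looked at after the values of Six3 were seen. Its signals were 3.73 and 3.24 in control and 2.44 and 2.18 in labelled knockout arrays, again with no overlap between groups. The difference of -1.17 (SE 0.26, limma adjusted p = 0.124) did not pass, and it was -1.29 and -1.06 by replicate number. The sources used here do not say whether its probes are free of Six3 signal. The Six3os1 difference was -1.42 without control replicate 2 and -0.93 without control replicate 1, fits that leave a lone control array.

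Rax, the retina and anterior neural fold homeobox gene, is among the earliest eye field genes and stays on in retinal progenitors. Rax signals of 3.57 and 3.84 in control arrays stood against 1.06 and 1.77 in labelled knockout arrays. The groups did not overlap, and the labelled knockout arrays lay further apart from each other than the controls did. The Rax signal was 4.88-fold lower, a log2 difference of -2.29 (SE 0.29, 95% interval -2.99 to -1.59, limma adjusted p = 0.0369). By replicate number it was -2.51 and -2.06, and Rax stood at rank 30 from the lowest difference. Settings that ended the limma call included quantile normalization (adjusted p = 0.121), centring on all transcript clusters (0.113) and leaving out dim genes (0.0836).

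Vsx1 signals were -0.88 and -0.54 in control and -1.32 and -1.01 in labelled knockout arrays. The mark of dim signal is a percentile and no measure of background. All 4 signals lay below it, so whether Vsx1 was detected is not known here. The difference of -0.46 (SE 0.21, 95% interval -0.95 to 0.04, limma adjusted p = 0.481) compares such signals with each other. It was -0.29 without control replicate 2, -0.30 after quantile normalization and -0.28 with centring on all transcript clusters.

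**Figure D2:**
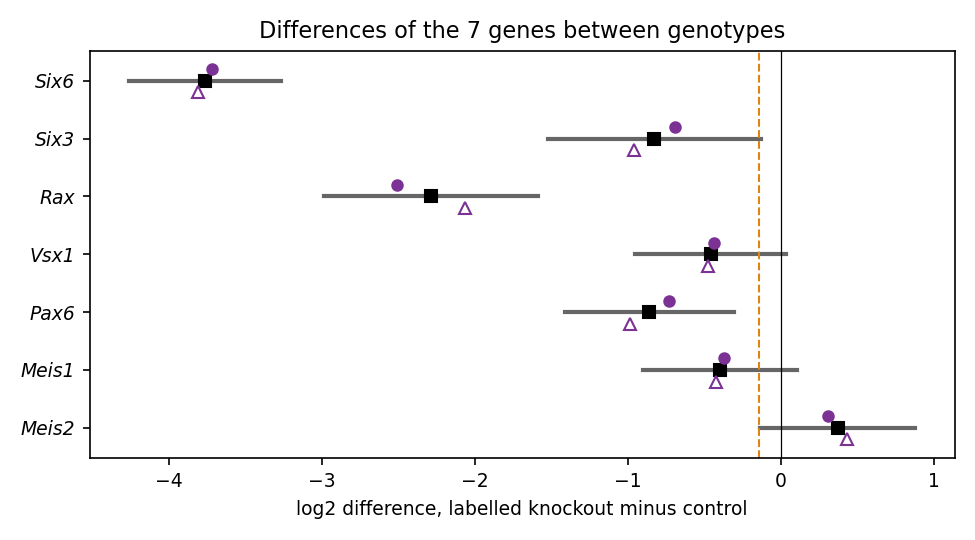
Log2 difference, labelled knockout minus control, for each of the 7 genes. Black squares with grey bars are the limma estimates with 95% intervals, filled circles the replicate 1 and open triangles the replicate 2 differences, and the dashed line the median over all genes (-0.14). The estimates of Six6 (-3.77) and Rax (-2.29) lie apart from the other 5, which lie between -0.86 and 0.37.

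Pax6 encodes a paired-domain and homeodomain protein whose dosage matters for the eye. On the cluster used for the gene (6879741), its signals were 4.42 and 4.62 in control and 3.69 and 3.63 in labelled knockout arrays. The groups did not overlap, and arrays of a group were close to each other. The difference was -0.86 (SE 0.23, 95% interval -1.41 to -0.30), 1.81-fold lower, and did not pass over all genes (limma adjusted p = 0.199). By replicate number it was -0.73 and -0.99.

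The 5 Pax6 clusters had lower means in the labelled knockout group, but their sizes and their behaviour by replicate number differed. Cluster 6879747 differed by -1.39, with -1.57 within the replicate 1 and -1.21 within the replicate 2 arrays. Its signals were 2.07 and 3.54 in control and 0.50 and 2.33 in labelled knockout arrays, so the groups overlapped. Cluster 6879742 differed by -0.65, with -1.02 and -0.27 by replicate number, and its groups overlapped. Cluster 6879744 differed by -0.39 and changed sign by replicate number, at -1.02 within the replicate 1 and 0.25 within the replicate 2 arrays. Its groups overlapped as well. Cluster 6879746 differed by -1.14, and both labelled knockout signals and 1 of the 2 control signals lay below the mark of dim signal. The sources used here do not say which parts of Pax6 these clusters cover. Pax6os1, the opposite-strand gene at this locus, was also looked at afterwards and differed by -0.98 (limma adjusted p = 0.381), with 3 of its 4 signals (-0.30, -1.26 and -0.46) below the mark of dim signal. By replicate number the Pax6os1 difference was -0.96 and -0.99, though it moved when 1 array was left out. It was -1.39 without control replicate 1 and -1.38 without labelled knockout replicate 2. Without control replicate 2 it was -0.56, and without labelled knockout replicate 1 it was -0.58.

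**Figure D3:**
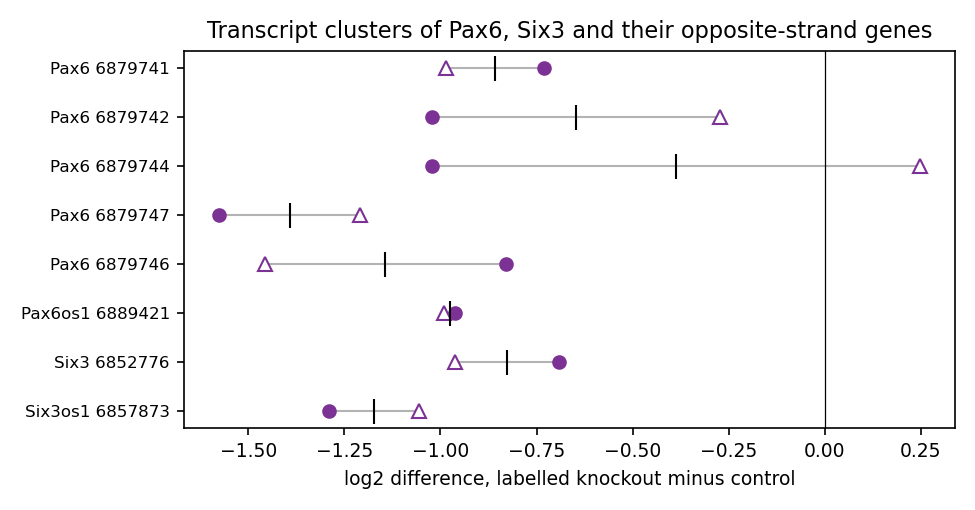
Log2 difference, labelled knockout minus control, for each transcript cluster of Pax6, Pax6os1, Six3 and Six3os1. Filled circles are differences within the replicate 1 arrays, open triangles those within the replicate 2 arrays, and black ticks their means. Cluster 6879744 of Pax6 lies on both sides of 0, at -1.02 and 0.25.

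Meis1 signals were 1.98 and 2.18 in control and 1.61 and 1.76 in labelled knockout arrays. The groups did not overlap but were close together. The difference was -0.40 (SE 0.21, 95% interval -0.90 to 0.11, limma adjusted p = 0.549), with -0.37 and -0.43 by replicate number. Meis2 was the member with a higher mean in the labelled knockout arrays, at 0.16 and 0.31 in control and 0.47 and 0.74 in labelled knockout arrays, all 4 above the mark of dim signal. Its difference was 0.37 (SE 0.21, 95% interval -0.14 to 0.88, limma adjusted p = 0.575), with 0.31 and 0.43 by replicate number. With 1 array left out it ran from 0.24 (labelled knockout replicate 2 out) to 0.51, and Meis1 from -0.50 to -0.30. The Meis1 difference was -0.22 with centring on all transcript clusters. The intervals of both Meis genes include 0.

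In all, 6 of the 7 genes had both labelled knockout signals below both control signals, as did 35.1% of all genes on this scale, and 1 had both above, as did 10.1%. On the deposited values without centring, 4 of the 7 (Six6, Rax, Six3 and Pax6) were lower without overlap, beside 10.2% of all genes, and 0 were higher without overlap, beside 9.63%. The separation of Meis1, Meis2 and Vsx1 thus depended on the scale of the arrays. That of Pax6 holds for the cluster used, whereas the centred signals of the groups overlapped in Pax6 clusters 6879742, 6879744 and 6879747.

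Genes whose pattern was most like that of Six6 and Rax were taken by the root mean square distance over the 4 arrays after each gene's own mean was subtracted. Closest to Six6 were Fgf15, a growth factor gene of retinal progenitors (distance 0.18), the forkhead gene Foxn4, needed for amacrine and horizontal cells (0.25), and the Wnt receptor gene Fzd5 (0.35). Their differences were -3.60, -3.42 and -3.36. Closest to Rax were 3021401C12Rik (distance 0.13), Plppr5, which encodes a phospholipid phosphatase-related membrane protein (0.17), and Crx, a paired-like homeobox gene of photoreceptors (0.20). Their differences were -2.46, -2.11 and -2.55. With 4 arrays in 2 groups such likeness mostly reflects the size of the difference between groups.

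Among other regulators of the eye field and optic vesicle, Fzd5 and Tbx3 fell. Of 22 measured of 24 listed, 2 fell and 0 rose, and 15 had an unadjusted p under 0.05. Over all genes 0.583% were called and 11.4% had an unadjusted p under 0.05. The median difference of the list was -0.43, beside -0.14 over all genes. Fzd5, which is expressed in the eye field, went from 3.83 and 3.42 in control to 0.51 and 0.02 in labelled knockout arrays (limma adjusted p = 0.0118). Tbx3, a T-box repressor gene known from eye field formation in frogs, went from 2.95 and 2.61 to 0.01 and -0.41, a difference of -2.98 (limma adjusted p = 0.0123). The other 20 did not pass, 15 of them with a difference below 0 and 5 above 0. Among these, Tbx2 differed by -1.77, the progenitor factor gene Sox2 by -1.19 and the Notch effector gene Hes1 by -1.11. Nr2e1 differed by -0.83, the homeobox gene Otx2 by -0.39, and the growth factor gene Bmp4 by 1.52.

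Close relatives and partners of the 7 genes were also listed. Over all genes 0.583% were called and 11.4% had an unadjusted p under 0.05, so 0 calls in lists this small does not set these genes apart. In the list of Six3 relatives with their Eya and Dach partners, among which Eya proteins act as coactivators, 0 of 9 measured members passed limma's threshold (2 had an unadjusted p under 0.05). The median was -0.12, with Eya2 at -0.81 (limma adjusted p = 0.336) and Eya1 at 0.56 (0.371). Without labelled knockout replicate 2 the list median turned to 0.096 and Eya2 differed by -0.46, and with centring on all transcript clusters the median was 0.052. Six2 differed by 1.94 within the replicate 1 and -0.27 within the replicate 2 arrays. Among Groucho corepressors, which Six3 and Six6 recruit, and geminin, which binds Six3, 0 of 6 passed (1 at an unadjusted p under 0.05) with a median of -0.23. Gmnn, the geminin gene, went from 1.05 and 1.37 to 0.25 and 0.08, a difference of -1.05 (limma adjusted p = 0.112). Without control replicate 1 Gmnn differed by -1.21, and with the mean of all its transcript clusters it differed by -0.66. The corepressor gene Tle3 differed by -0.55 (limma adjusted p = 0.557), and by -0.94 and -0.17 without replicates 1 and 2 of the labelled knockout. Of 8 measured TALE genes that include the Pbx and Meis relatives, 0 passed (3 at an unadjusted p under 0.05) and the median was -0.28, with Tgif2 at -0.64 and Pknox1 at -0.52. Of 8 other Pax genes 0 passed (2 at an unadjusted p under 0.05), and 7 of these 8 were below the mark of dim signal on every array. The dim members included Pax2, a gene of the optic stalk, at -0.49 (limma adjusted p = 0.379). Pax7, known from neural crest and muscle progenitors, lay above the mark, at 0.25 and 0.19 in control and 1.03 and 0.59 in labelled knockout arrays. Its difference of 0.59 did not pass (limma adjusted p = 0.404), and it was 0.37 without labelled knockout replicate 1 and 0.26 with the mean of all its transcript clusters.

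Among 14 measured of 21 listed paired-like homeobox relatives of Rax and Vsx1, 1 fell (beside 0.326% of all genes) and 0 rose. The median was 0.04, beside -0.14 over all genes. Of the 14, 3 had an unadjusted p under 0.05, as did 11.4% of all genes. The fall was in Crx, from 1.78 and 1.67 to -1.08 and -0.57 (limma adjusted p = 0.0161), with both labelled knockout signals below the mark of dim signal. Relatives expressed in mesenchyme were uneven between replicate numbers, with Prrx1 at 2.84 within the replicate 1 and 0.60 within the replicate 2 arrays and Alx1 at 2.49 and 0.22.

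The last list held genes reported to depend on Six3, Six6, Rax or Pax6 in eye development. Of 17 measured of 18 listed, 3 fell and 0 rose, beside 0.326% and 0.257% of all genes. The median was -0.70, beside -0.14 over all genes, and 9 had an unadjusted p under 0.05, as did 11.4% of all genes. The list was drawn up with earlier results of these data known and was not sorted by direction. Its calls and median are therefore no test of dependence on these factors. The median was -1.11 without labelled knockout replicate 2 and -1.17 with dim genes left out. The genes that fell included Fgf15 (5.78 and 5.60 in control, 2.20 and 1.98 in labelled knockout arrays) and Foxn4 (4.20 and 4.18 against 0.96 and 0.57). The last was Atoh7, the basic helix-loop-helix gene needed for retinal ganglion cells (4.95 and 5.14 against 3.23 and 3.22). The limma adjusted p of Fgf15, Foxn4 and Atoh7 was 0.0109, 0.0109 and 0.0369. With dim genes left out the Atoh7 call was lost (limma adjusted p = 0.0641). Cyclin D1, encoded by Ccnd1, differed by -1.83, Sfrp2 by -1.44 and Dkk3 by -1.15, and these did not pass. Wnt8b, which Six3 represses in the mouse forebrain, had control signals of -1.91 and -1.50 and labelled knockout signals of -0.99 and 3.11. Its high signal was in labelled knockout replicate 2 alone, and the Wnt8b difference did not pass (limma adjusted p = 0.434).

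**Figure D4:**
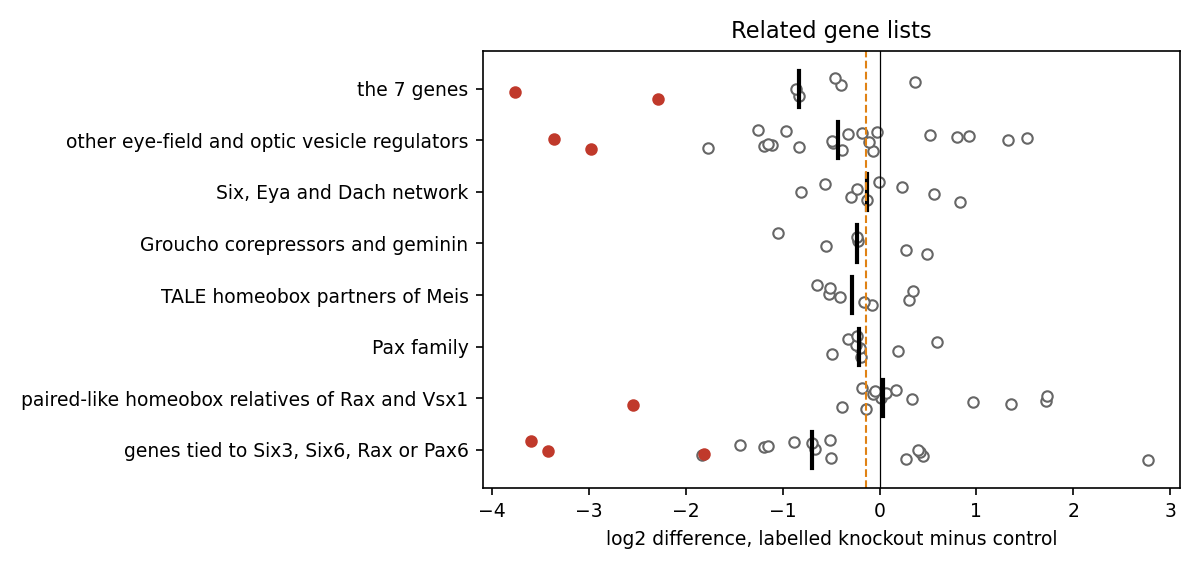
Log2 difference, labelled knockout minus control, for the 7 genes and each related gene list, with 1 point per gene. Red points passed limma's adjusted p of 0.05, open points did not, thick bars are list medians, and the dashed line is the median over all genes (-0.14). Calls lie on the lower side in the lists that hold any.

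Markers of other tissues differed between the arrays as well. Of 10 measured of 11 listed periocular mesenchyme markers, 10 had higher means in the labelled knockout group and 0 passed limma's threshold. Of the 10, 9 had an unadjusted p under 0.05, beside 11.4% of all genes. The summed mesenchyme signal was 3.42 and 3.39 in control and 7.04 and 4.46 in labelled knockout arrays, and its median difference was 3.08 within the replicate 1 and 0.91 within the replicate 2 arrays. For 9 measured pigment epithelium markers the summed signal was 4.81 and 5.03 in control and 6.10 and 5.03 in labelled knockout arrays, with median differences of 2.07 and 0.25. Otx2, also listed with the eye field regulators, was the brightest of the 9 on both control arrays (4.40 and 4.13). Its labelled knockout signals were 4.06 and 3.69, and it weighs heavily in these sums. Of the 9 markers, 7 had higher and 2 lower means in the labelled knockout group. Of 9 measured surface ectoderm markers, the sums were 2.60 and 2.81 against 3.94 and 2.79. Labelled knockout replicate 1 thus stood apart in all 3 lists, and Rpe65, Ttr, Krt14 and Trp63 were dim on every array.

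Without labelled knockout replicate 1, which leaves a lone labelled knockout array, Six6 differed by -3.73 and Rax by -1.93. Meis and Pax6 transcripts are also found in periocular mesenchyme, pigment epithelium, lens or surface ectoderm. The part of these tissues in the values of the 7 genes was not tested. Lens markers, of which 4 of 9 were dim on every array, had summed signals of 4.14 and 4.43 in control and 4.03 and 4.44 in labelled knockout arrays. Prox1, the brightest of them, was at 3.32 and 3.92 in control and 3.11 and 4.06 in labelled knockout arrays. Vascular markers had sums of 5.05 and 4.79 in control and 4.94 and 4.31 in labelled knockout arrays, and 0 of 6 passed limma's threshold (6 had an unadjusted p under 0.05, 5 of them with a higher mean and Kdr with a lower mean). Of 7 ciliary margin markers 1 rose, Wls, which encodes a carrier of Wnt proteins, with a difference of 2.07 (limma adjusted p = 0.0486). The median of that list was -0.14, with 4 of the 7 differences below 0, and 4 of the 7 had an unadjusted p under 0.05. Wfdc1 differed by -2.40 and Cdon by -1.37, and neither passed. In the lens, surface ectoderm, pigment epithelium, optic stalk, macrophage and ganglion and amacrine cell lists 0 passed (0, 2, 6, 2, 1 and 3 had an unadjusted p under 0.05). Of the 7 neuroretina markers 2 fell, Fgf15 and Atoh7, and 5 had an unadjusted p under 0.05. The shares over all genes, to be set beside the counts of each list, were 0.583% called and 11.4% with an unadjusted p under 0.05.

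Hypothalamic and diencephalic markers rose, 7 of 8 measured of 9 listed, with a median difference of 3.58 (3.12 within the replicate 1 and 4.39 within the replicate 2 arrays). Over all genes 0.257% rose, and 0 were called after quantile normalization or with centring on all transcript clusters. These markers were chosen after their values were seen, so their count is no independent test. Their summed signals were 2.02 and 1.90 in control and 5.30 and 6.47 in labelled knockout arrays, and 0 of the 8 lay above the mark of dim signal on both control arrays, against 7 on both labelled knockout arrays. Sim1, a transcription factor gene of the hypothalamus, went from -0.98 and -1.17 to 3.38 and 4.48 (limma adjusted p = 0.0118). The eighth marker, Wnt8b, did not pass. Rax, Six3 and Six6 also function in the hypothalamus or pituitary. The source of the marker signals, and their bearing on the values of Rax, Six3 and Six6, were not tested.

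**Figure D5:**
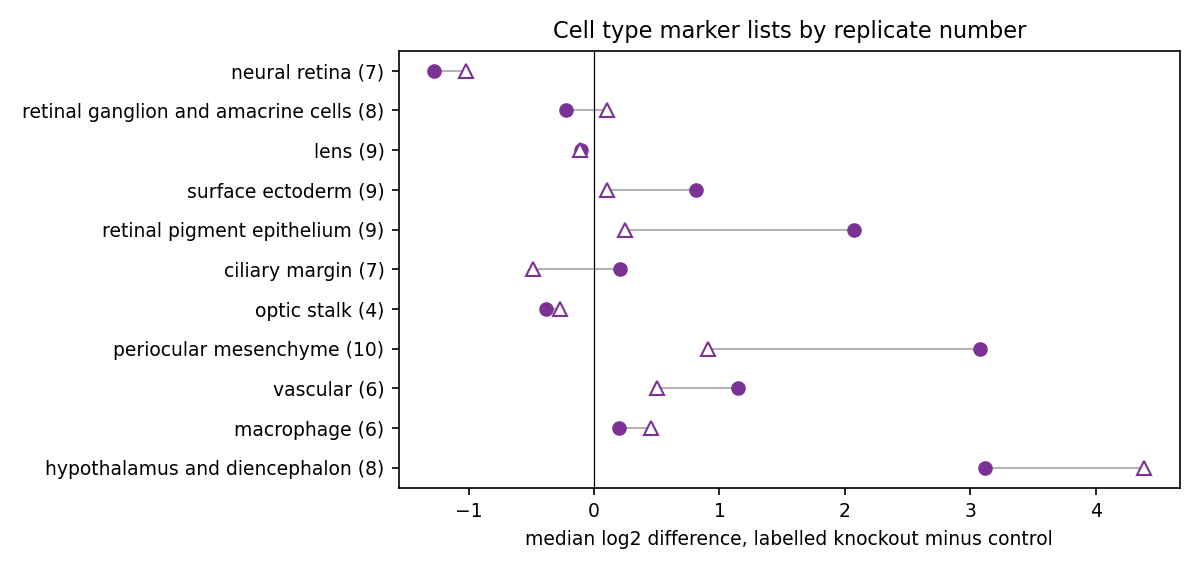
Median log2 difference, labelled knockout minus control, of each cell type marker list, with the number of markers measured in brackets. Filled circles are medians within the replicate 1 arrays and open triangles those within the replicate 2 arrays. Mesenchyme (3.08 and 0.91) and pigment epithelium (2.07 and 0.25) differ more between replicate numbers than neuroretina (-1.27 and -1.02).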

How the data were processed

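Per the labels' protocols, RNA was extracted with an RNeasy kit, freed of ribosomal RNA and labelled for 4 Affymetrix arrays with a whole-transcript assay. The deposited values are log2 signals per transcript cluster. The submitters' processing notes name RMA, Partek and mm9, with no versions. The array medians of the deposited log2 values differed, so each array was centred here on the median of the genes tested.

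Groups and replicate numbers came from the sample titles. The probe annotation gave a single symbol to 25513 of 112205 transcript clusters and several to 2290, and 84402 had no name here. For 3104 of 20252 genes with several clusters the one with the highest mean was used. Differences were tested two-sided by limma 3.58.1 (R 4.3.3; lmFit, then eBayes with a trend on intensity; genotype as the only term), with Benjamini-Hochberg adjustment over all genes at 0.05. "Fell" and "rose" are used of genes that passed. The test was also run on simulated data whose noise was drawn independently for each array. In the real data, deviations of same-numbered arrays from their group means correlated at 0.479 across genes. The simulation therefore does not show the error rate of the test in these data.

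The members, lists and test were chosen with earlier results of these data known. Named beside the 7 genes are, per related list, up to 4 passing genes of smallest p (or 2 where none passes) and the 3 genes closest in pattern to each of Six6 and Rax. Six3os1, Pax6os1, Lhx2, Tbx2, Sox2, Hes1, Nr2e1, Otx2, Bmp4, Six2, Prrx1, Alx1, Ccnd1, Sfrp2, Dkk3, Wnt8b and the markers were chosen after their values were seen. Alternatives covered the array scale, dim genes, several clusters, the variance prior, a term for replicate number, leaving out each array, and the threshold. Upstream sequences came from a RefSeq table. The name of the promoter that drives Cre, and some listed genes, are not reported here.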

Additional observations from a re-analysis of the deposited data

How the results depend on the processing

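Under the 12 alternatives, none of the 7 genes changed direction where it was measured (Vsx1 was removed with dim genes left out). Six6 lost limma's adjusted p of 0.05 after quantile normalization (difference -3.67) and with arrays centred on the median of all transcript clusters (-3.59). Rax lost it in the same settings (-2.17 and -2.11), with dim genes left out (-2.29, adjusted p = 0.0836) and with the replicate block (-2.29, adjusted p = 0.0516). The causes were not tested. Of the other named genes, the calls of Fgf15, Foxn4, Fzd5, Tbx3, Crx, Atoh7, Plppr5 and 3021401C12Rik were lost in the first 2 settings. Those settings called 0 genes, so the calls of the marker genes, Sim1 and Wls among them, were lost there too. With dim genes left out the limma calls of Atoh7 and Plppr5 were lost (adjusted p = 0.0641 and 0.0627). Those of Atoh7, Crx and Plppr5 were lost with the replicate block (limma adjusted p = 0.0516, 0.0521 and 0.0555). Of the medians of the 7 related lists under the alternatives, 20 moved by more than the spread between replicates and 57 did not. That of the paired-like relatives, 0.04, ran from -0.14 with dim genes left out to 0.22 with centring on all transcript clusters. That of the Groucho list, -0.23, was -0.05 and that of the TALE list, -0.28, was -0.11 with such centring. Of the 7 genes, 0 passed in each of the first 2 settings, and 1 with dim genes left out and with the block. Over all genes, 118 passed, 52 higher and 66 lower. The count was 415 on deposited values (257 higher and 158 lower), 0 after quantile normalization and 0 with centring on all transcript clusters (limma, with 2263 and 1959 at an unadjusted p under 0.05). It was 35 with dim genes left out, where fewer genes were tested, 17 with the replicate block and 350 at an adjusted p of 0.10. With 1 array left out it ran from 447 to 743, in fits where the lone array is assumed to vary like the other group. The median difference over all genes, -0.14, was -0.06 on deposited values, -0.00 after quantile normalization and 0.03 with centring on all transcript clusters, so differences near it have no settled direction. With 1 array left out, Six6 ran from -3.85 to -3.68 and Rax from -2.64 to -1.93. Lhx2 turned sign, at 0.016 on deposited values, 0.046 after quantile normalization and 0.11 with centring on all transcript clusters, and ran from -0.22 to 0.090 with 1 array left out. The replicate numbers are not stated to mark a shared litter or day, and deviations of same-numbered arrays from their group means correlated at 0.479 across genes.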
